A study of Mus musculus with 12 samples.

Results

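The genes described are 10 enzymes and cofactors that write, copy or remove 2 repressive chromatin marks, taken by gene name from the 32288 genes and transgenes counted in 12 libraries of sorted mouse osteoblasts. They are *Ezh2*, *Suz12* and *Eed*, the core of Polycomb repressive complex PRC2, together with *Dnmt1*, *Dnmt3a*, *Dnmt3b*, *Uhrf1*, *Hells*, *Tet1* and *Tet2*, which act on DNA methylation. Expression was measured by bulk RNA-seq of cells carrying a membrane GFP label (mGFP+) that were negative for CD31, CD45 and TER119 and came from the metaphysis, the flared end of a long bone under the growth plate. In all 4 groups the label came from *Osx-CreERT2*; *mTmG*, so that tamoxifen marked cells expressing *Osx* (*Sp7*), a transcription factor of the osteoblast lineage. Juvenile libraries (n = 4) came from 3-week-old and adult libraries (n = 4) from 8-week-old mice, each from 2 pooled male mice and with the shaft cut off at about 2 mm below the growth plate. The *c-Myc* libraries (n = 2) also carried *LSL-tTA* and *Col1a1::TetO–c-Myc*, which switch on *c-Myc* in the labelled cells. The *c-Myc* + *R172H* libraries (n = 2) carried in addition *Trp53-LSL-R172H*, an allele encoding mutant p53. Both induced groups were collected 7 days after tamoxifen, with a 5 mm trim. Their library titles carry 3 weeks, while the age listed at dissection is 5 weeks. If the title age is the age at tamoxifen, collection 7 days later falls before 5 weeks. The age at collection is therefore not settled. The protocol for these cells gives both sexes, although another statement of the study gives males for its RNA-seq. For mice with the inducible transgene, or pregnant females, the paper also describes doxycycline or tetracycline in drinking water, stopped before analysis. Age at collection, trim length, tamoxifen schedule and possibly sex and this drug therefore changed together with *c-Myc* and cannot be told apart from it.

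PRC2 places methyl groups on lysine 27 of histone H3 and keeps developmental genes silent. *Ezh2* encodes its catalytic subunit, *Suz12* its scaffold and *Eed* the subunit that reads the mark and stimulates the enzyme. *Dnmt1* copies DNA methylation onto the new strand after replication, guided by *Uhrf1*, which recognises hemimethylated sites, and helped by the remodeler *Hells*. *Dnmt3a* and *Dnmt3b* add methylation to unmethylated DNA, and the dioxygenases *Tet1* and *Tet2* oxidise methylcytosine, a step towards its removal.

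The libraries held between 9066154 and 15684412 counts. Counts of *Myc* rose from 39.8 to 52.2 CPM (counts scaled to library size, with TMM factors that correct for library composition) in the 8 libraries without the transgene to 624.1 to 747.7 CPM in the 4 with it, and all labels fitted their *Myc* level. *Trp53* level does not report on the R172H change, which alters its sequence. The osteoblast genes *Sp7* (119.1 to 245.6 CPM) and *Col1a1* were high in all 12 libraries. *Ptprc* and *Pecam1*, which define blood and endothelial cells, were at 0 in all juvenile libraries and at most 0.397 and 0.645 CPM elsewhere, and *Acp5* of osteoclasts was between 2.33 and 7.37 CPM. The sum of 6 osteoclast markers was 202.7 to 332.1 CPM in juvenile, 221.1 to 411.2 CPM in adult and 83.99 to 104.6 CPM in *c-Myc* libraries. Nearly all of it was *Ctsk* and *Mmp9*, while *Ocstamp* and *Dcstamp* were at 0 in all 12 libraries. The cartilage genes *Col2a1* and *Acan* were abundant in the control libraries: the sum of 12 chondrocyte markers was 18590 to 36210 CPM in juvenile, 43990 to 138900 in adult, 1874 to 2118 in *c-Myc* and 876.1 to 1043 in *c-Myc* + *R172H* libraries. *Lepr*, of marrow stromal cells, was at 115.3 to 135.7 CPM in juvenile and 17.9 to 22.2 CPM in *c-Myc* libraries. The sum of 6 marrow stromal markers was 326.3 to 415.2 CPM in juvenile, 420 to 651.1 CPM in adult and 122.9 to 204.2 CPM in *c-Myc* libraries. In bulk libraries, fewer cells of a type and less RNA per cell cannot be told apart.

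Divided by exon length, *Dnmt3a* had the highest level of the 10 genes in the control groups, with a mean of 7.62 CPM per kb in juvenile and 6.20 in adult libraries. *Dnmt1* came next at 4.59 CPM per kb in juvenile libraries, followed by *Suz12* at 3.31 and *Uhrf1* at 2.56, whose ranges over libraries overlapped. *Ezh2* (1.69), *Eed* (1.67) and *Tet2* (1.42 CPM per kb) had ranges that overlapped each other, and were followed by *Dnmt3b* (0.988), *Tet1* (0.806) and *Hells* (0.450). On this scale the levels of *Ezh2* and *Eed*, 2 subunits of one complex, did not differ beyond their spread, while that of *Suz12* lay above both without overlap in range. The length was the union of all annotated exons (15 transcripts for *Ezh2*, 6 for *Suz12* and 10 for *Eed*). Which transcripts were expressed was not determined, so the order between genes could differ with another length. In *c-Myc* libraries the order was another one. *Dnmt1* was highest at 19.5 CPM per kb, then *Uhrf1* at 17.4 and *Suz12* at 9.75, while *Dnmt3a* was at 5.61 and the order ended with *Tet2* at 1.75 and *Tet1* at 1.02. *Hells* moved from the lowest place to 3.97 CPM per kb, where its range overlapped those of *Ezh2* (4.10) and *Eed* (3.75).

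**Figure D1:**
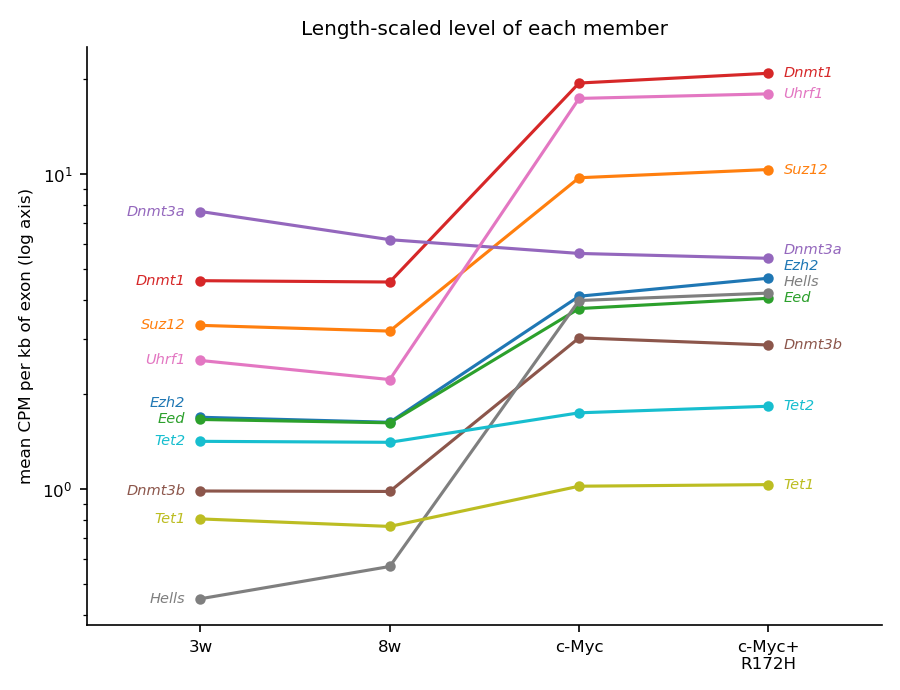
Mean level of each gene in CPM per kb of exon, on a log axis, in the 4 groups (3w, juvenile, n = 4; 8w, adult, n = 4; c-Myc, n = 2; c-Myc + R172H, n = 2). The lines of Dnmt1, Uhrf1, Suz12 and Hells climb steeply between the adult and c-Myc groups, while that of Dnmt3a goes from 7.62 in juvenile to 5.61 in c-Myc libraries.

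The first comparison asked whether juvenile osteoblasts, which the study relates to the age at which osteosarcoma arises, differ from adult ones. None of the 10 genes passed edgeR's quasi-likelihood test between juvenile and adult libraries (Benjamini-Hochberg adjusted p below 0.05), where 1.89% of 11345 tested genes were called higher and 3.23% lower. These 214 and 367 genes became 85 to 344 and 199 to 541 with 1 library left out, and 53 and 793 with library totals. DESeq2 called 0 as well. In edgeR an unadjusted p under 0.05 was found for 1 of the 10, *Dnmt3a*, and for 2233 of the 11345 tested genes. *Dnmt3a* stood at 118.8, 127.2, 145.3 and 115.5 CPM in the juvenile libraries and at 97.8, 118.4, 107.1 and 89.2 CPM in the adult ones, so that juvenile exceeded adult by 0.29 ± 0.12 on the log2 scale (SE, adjusted p = 0.195). Its groups overlapped by a single adult library. For the 3 PRC2 core genes and *Dnmt1* the means were nearly equal: *Ezh2* 11.3 ± 1.91 and 10.9 ± 2.02 CPM (SD, n = 4 each), and *Dnmt1* 33.9 ± 4.70 and 33.6 ± 5.76 CPM. The differences left room for moderate change, since the SE of the log2 fold change was 0.23 for *Ezh2*, 0.33 for *Eed* and 0.43 for *Dnmt3b*. *Hells* was the least certain: it had 4 counts in adult replicate 2 (0.452 CPM) and 7.68 CPM in adult replicate 4, against 1.86 to 4.47 CPM in juvenile libraries, for a log2 fold change of -0.35 ± 0.58 (SE). *Tet1* was at 9.88 to 10.4 CPM in juvenile replicates 1 to 3 and at 19.5 CPM in replicate 4, above every adult library (8.00 to 14.6 CPM).

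Among related genes, 1 differed with age. Of 10 other PRC2 or H3K27 genes and 20 PRC1 genes tested none was called, at either adjusted or unadjusted p. Of 18 other DNA methylation genes 5 had an unadjusted p under 0.05. Only *Mbd1*, a reader of methylated DNA, was called (log2 fold change 0.86 ± 0.19 SE, adjusted p = 0.0145, and 0.60, adjusted p = 0.111, when scaled by library totals). Of 15 proliferation genes 0 were called. Their median log2 fold change was -0.22, and 3 of the 15 were above 0. *Mki67* was at 34.3 ± 9.74 CPM in juvenile and 31.9 ± 11.9 CPM in adult libraries (SD, n = 4 each), and *Pcna* at 20.6 ± 3.33 and 20.0 ± 5.21 CPM.

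The second comparison set the *c-Myc* libraries against the juvenile ones, which differ in *c-Myc* and in the conditions that changed with it. Of the 10 genes, 7 were called higher in *c-Myc* than in juvenile libraries, where 28.4% of 12588 tested genes were called higher, and all 7 rose by at least 1 on the log2 scale, as did 18.4% of tested genes. Of the other 3, *Dnmt3a* was called lower, as were 25.0% of tested genes. The median log2 fold change was 1.39 over the 10 genes and 0.04 over all genes tested. The juvenile and *c-Myc* libraries did not overlap for any of these 8, nor for *Tet2*, which was not called. The share of all tested genes without overlap was not counted. Cell type markers moved in the same comparison: 10 of 10 osteoblast genes (sums of 571700 to 840500 CPM in juvenile and 99960 to 132400 CPM in *c-Myc* libraries), 12 of 12 chondrocyte genes and 5 of 6 marrow stromal genes were called lower, and with library totals 8, 12 and 1 were. Of 3 osteoclast genes tested, *Ctsk* was called lower, at 125.5 to 147.1 CPM in juvenile and at 13.8 and 20.3 CPM in *c-Myc* libraries. The sum of 10 haematopoietic markers was 0.497 to 1.95 CPM in juvenile, 5.47 to 12.3 CPM in adult and 7.49 to 7.90 CPM in *c-Myc* libraries. That of 6 endothelial markers was at most 0.516 CPM in juvenile, at most 2.35 CPM in adult and 6.67 to 8.28 CPM in *c-Myc* libraries. Most of each came from 1 gene in *c-Myc* libraries, *Lyz2* (6.49 and 5.84 CPM) and *Egfl7* (5.94 and 7.43 CPM), with *Ptprc* at most 0.397 and *Pecam1* at most 0.548 CPM there. The part of these cells in the differences was not tested.

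The largest increases were in the maintenance group. *Hells* was at 3.29, 1.86, 3.34 and 4.47 CPM in the juvenile and at 27.5 and 29.8 CPM in the *c-Myc* libraries, an increase of 3.13 ± 0.24 on the log2 scale (SE, adjusted p = 3.752e-07). *Uhrf1* went from 13.2, 11.4, 9.74 and 9.44 CPM to 80.2 and 68.1 CPM (2.73 ± 0.14, adjusted p = 2.637e-08). *Dnmt1* went from 40.2, 29.4, 34.5 and 31.4 CPM to 148.2 and 139.1 CPM (2.06 ± 0.12, adjusted p = 5.258e-08). In each of these the lowest *c-Myc* library was more than 3-fold above the highest juvenile one.

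The PRC2 core rose less, and its 3 genes rose by similar amounts. *Suz12* was at 19.3, 14.6, 12.1 and 19.6 CPM in the juvenile and at 49.6 and 46.8 CPM in the *c-Myc* libraries (log2 fold change 1.53 ± 0.17 SE, adjusted p = 1.029e-05). *Ezh2* went from 13.5, 9.08, 10.6 and 12.1 CPM to 29.2 and 25.6 CPM (1.25 ± 0.18, adjusted p = 8.056e-05). *Eed* went from 7.22, 5.06, 6.54 and 6.71 CPM to 16.0 and 12.7 CPM (1.15 ± 0.21, adjusted p = 0.0006314). The groups were apart for all 3 subunits, by less than for *Hells*, *Uhrf1* or *Dnmt1*.

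The 2 enzymes that add new methylation went opposite ways. *Dnmt3b* was at 7.86, 2.89, 2.23 and 7.21 CPM in the juvenile and at 16.3 and 14.6 CPM in the *c-Myc* libraries (log2 fold change 1.57 ± 0.38 SE, adjusted p = 0.003774). *Dnmt3a* went from 118.8, 127.2, 145.3 and 115.5 CPM to 86.2 and 100.4 CPM (-0.46 ± 0.11, adjusted p = 0.004022). This fall depended on the scaling: with library totals alone the log2 fold change of *Dnmt3a* was 0.37 (adjusted p = 0.0335), the median over all genes moved from 0.04 to 0.87, and 6803 genes were called higher and 1115 lower in place of 3577 and 3149. *Dnmt3a* was thus below the median gene under either scaling, and the 7 genes that rose were above it. Without *c-Myc* replicate 1 the fall of *Dnmt3a* was 0.35 on the log2 scale and was not called (adjusted p = 0.0827).

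The demethylation enzymes did not pass the test. *Tet2* was at 28.5, 21.4, 20.0 and 26.0 CPM in the juvenile and 29.7 and 29.3 CPM in the *c-Myc* libraries (log2 fold change 0.27 ± 0.17 SE, adjusted p = 0.191). *Tet1* was at 10.4, 10.0, 9.88 and 19.5 CPM in the juvenile and 15.6 and 16.1 CPM in the *c-Myc* libraries (0.33 ± 0.26, adjusted p = 0.312). Whether *Tet1* was called depended on the setting. Without juvenile replicate 4 its log2 fold change was 0.62 and it was called (adjusted p = 0.00838). *Tet1* was also called with replicate number added to the model (0.598). With library totals *Tet1* and *Tet2* rose by 1.18 and 1.10 on the log2 scale and were called.

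**Figure D2:**
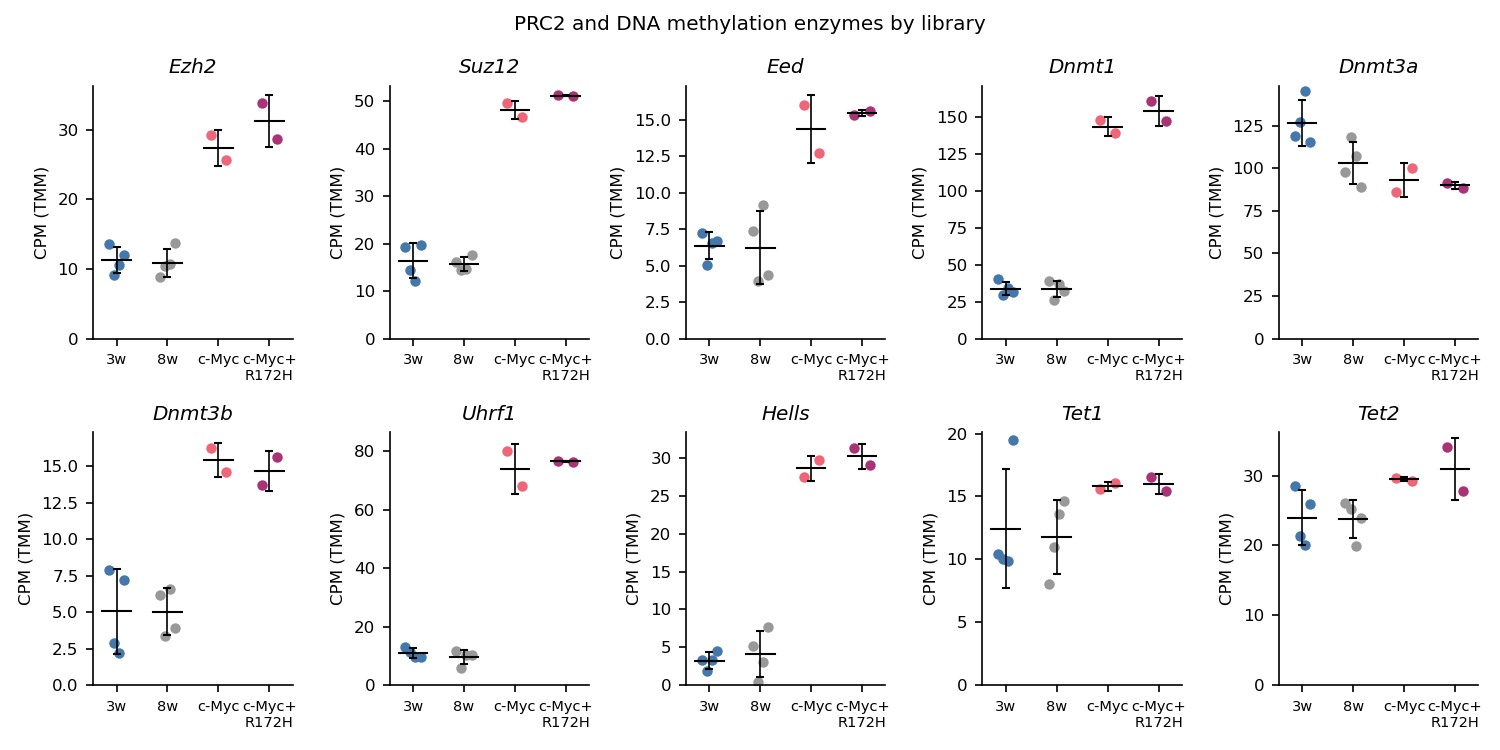
Level of each gene in CPM (scaled by TMM over the 12 libraries) in every library, with 1 point per library, a horizontal line at the group mean and bars of 1 SD (3w, juvenile, n = 4; 8w, adult, n = 4; c-Myc, n = 2; c-Myc + R172H, n = 2). Juvenile and adult libraries overlap for all 10 genes, while the c-Myc libraries lie above all juvenile ones for Ezh2, Suz12, Eed, Dnmt1, Dnmt3b, Uhrf1, Hells and Tet2 and below them for Dnmt3a.

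Compared with adult libraries, whose age at collection lies on the other side of that of the *c-Myc* mice, 7 of the 10 genes were called higher and 0 lower (26.7% and 23.4% of 13005 tested genes). This comparison shares its *c-Myc* libraries with the one above. *Uhrf1* had a log2 fold change of 2.96 ± 0.20 (SE), *Hells* 2.79 ± 0.51, *Dnmt1* 2.10 ± 0.15, *Dnmt3b* 1.62 ± 0.39, *Suz12* 1.61 ± 0.18, *Ezh2* 1.33 ± 0.21 and *Eed* 1.21 ± 0.30. *Dnmt3a* was at -0.15 ± 0.13 (adjusted p = 0.391) and was not called, so its difference from juvenile libraries was not found against adult ones. *Tet1* (0.43 ± 0.28, adjusted p = 0.227) and *Tet2* (0.31 ± 0.18, adjusted p = 0.162) were not called either. Without *c-Myc* replicate 1, *Eed* had a log2 fold change of 1.05 and an adjusted p of 0.0547.

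**Figure D3:**
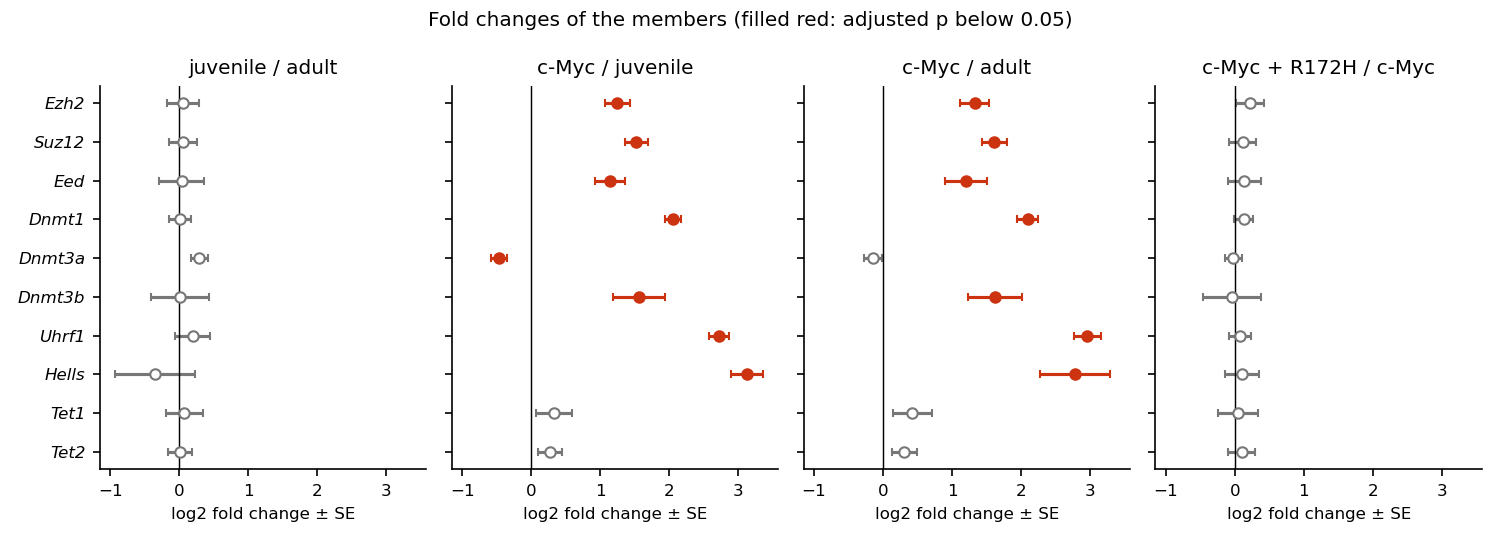
Log2 fold change with its SE for each gene in 4 comparisons (juvenile over adult, c-Myc over juvenile, c-Myc over adult, c-Myc + R172H over c-Myc), with filled red points for adjusted p below 0.05 in edgeR's quasi-likelihood test. Points cluster at 0 in the first and last comparison, and 7 genes lie above 1 in both comparisons of c-Myc with controls.

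The third comparison added the p53 mutant to *c-Myc*. None of the 10 genes was called between *c-Myc* + *R172H* and *c-Myc* libraries, where 0.00794% of 12588 tested genes (1 gene) were called higher and 0.461% lower. In edgeR all 10 had an adjusted p of 1, 0 had an unadjusted p under 0.05 (589 of all genes tested did), and DESeq2 called 0. The log2 fold changes ran from -0.05 for *Dnmt3b* to 0.22 for *Ezh2*, with SEs from 0.13 for *Dnmt3a* to 0.42 for *Dnmt3b*. Values of the 2 groups were close: *Dnmt1* was at 148.2 and 139.1 CPM with *c-Myc* and 161.3 and 147.1 CPM with *c-Myc* + *R172H*, and *Uhrf1* at 80.2 and 68.1 against 76.7 and 76.5 CPM. With 2 libraries each, this comparison cannot show small differences. Against juvenile libraries, *c-Myc* + *R172H* had 7 of the genes higher (30.4% of tested genes were called higher) and *Dnmt3a* lower (26.3% were called lower), using the same juvenile libraries as the comparison above. *Hells* had a log2 fold change of 3.24 ± 0.24 (SE), *Uhrf1* 2.80 ± 0.14, *Dnmt1* 2.19 ± 0.12, *Suz12* 1.64 ± 0.17, *Dnmt3b* 1.52 ± 0.38, *Ezh2* 1.47 ± 0.18, *Eed* 1.28 ± 0.21 and *Dnmt3a* -0.49 ± 0.11. *Tet1* (0.37 ± 0.26, adjusted p = 0.24) and *Tet2* (0.37 ± 0.17, adjusted p = 0.0758) did not pass. *Tet2* passed without juvenile replicate 1 (0.47, adjusted p = 0.0277) and without a filter on low counts (0.43, adjusted p = 0.0383), *Tet1* without juvenile replicate 4 (0.66, adjusted p = 0.00513), and both with library totals (1.41 and 1.44).

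The ratio of 2 genes within a library is not changed by scaling, so it was taken for 3 pairs with related roles. The log2 ratio of *Dnmt1* to *Dnmt3a* counts (2 added to each) was -1.90 ± 0.249 (SD, n = 4) in juvenile, -1.62 ± 0.378 (n = 4) in adult, 0.626 ± 0.220 (n = 2) in *c-Myc* and 0.775 ± 0.0631 (n = 2) in *c-Myc* + *R172H* libraries. In the 4 induced libraries *Dnmt1* counts outnumbered those of *Dnmt3a*, and in all 8 control libraries they did not. The ratio of *Uhrf1* to *Uhrf2*, its close paralog, changed from -1.05 ± 0.460 in juvenile to 1.26 ± 0.189 in *c-Myc* libraries. That of *Ezh2* to *Ezh1*, the other PRC2 catalytic subunit, changed from 0.135 ± 0.423 to 1.36 ± 0.0971. The differences between *c-Myc* and juvenile libraries were 2.53, 2.31 and 1.23 on the log2 scale, each with an exact two-sided permutation p of 0.0667, the smallest that 2 against 4 libraries can give, and an adjusted p of 0.133 over 6 tests. Between juvenile and adult libraries the exact permutation p was 0.314 for *Dnmt1* and *Dnmt3a*, 0.4 for *Uhrf1* and *Uhrf2* and 0.6 for *Ezh2* and *Ezh1*.

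**Figure D4:**
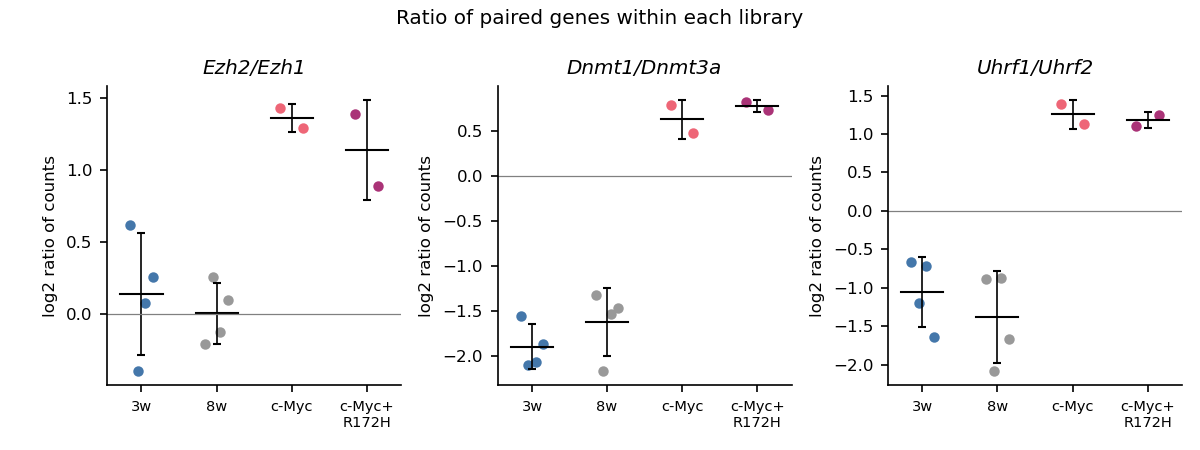
Log2 ratio of counts of 2 genes in each library (2 counts added to each gene), with 1 point per library, the group mean and bars of 1 SD (3w, juvenile, n = 4; 8w, adult, n = 4; c-Myc, n = 2; c-Myc + R172H, n = 2). The induced libraries lie above the juvenile and adult libraries for all 3 pairs, and for Dnmt1/Dnmt3a they lie above 0 while the controls lie below it.

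Related genes were called in both directions in each of 3 lists, whereas with library totals 9 PRC2 and H3K27, 13 PRC1 and 13 DNA methylation genes were called higher and 0 lower. Of 10 other PRC2 and H3K27 genes tested between *c-Myc* and juvenile libraries, 6 were called higher and 1 lower, and the list median was 0.63 on the log2 scale. The largest increases were in *Epop* (4.03 ± 0.18 SE), an accessory subunit, *Rbbp7* (1.18 ± 0.19), a histone-binding subunit, and *Aebp2* (1.08 ± 0.12), a cofactor. The accessory subunit *Phf1* was lower (-0.66 ± 0.23, adjusted p = 0.0295), but not with library totals (0.17). *Ezh1* was not called (0.03 ± 0.21). The PRC1 genes encode subunits of a family of complexes that ubiquitylate histone H2A, and only some of these complexes bind the H3K27 mark. Of 20 PRC1 genes, 6 were called higher and 4 lower, near the shares over all genes (28.4% and 25.0%), with a median of -0.12. The largest changes included those in *Pcgf6* (1.88 ± 0.26), *L3mbtl2* (1.83 ± 0.16) and *Pcgf5* (1.71 ± 0.44) on the one side, and those in *Phc1* (-1.24 ± 0.21) and *Cbx8* (-0.89 ± 0.28) on the other. With library totals *Phc1* was at -0.41 and *Cbx8* at -0.05.

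Of 18 other DNA methylation genes, 8 were called higher and 3 lower (28.4% and 25.0% of all tested genes), with a median of 0.48. The largest increases were in *Cdca7l* (4.27 ± 0.22 SE), *Cdca7* (3.48 ± 0.25), whose product works with that of *Hells*, and *Ahcy* (3.12 ± 0.20), which clears the by-product of methyl transfer. Among the lower genes were *Mbd2* (-0.95 ± 0.10) and *Zbtb38* (-0.70 ± 0.16), which bind methylated DNA, although with library totals they were at -0.11 and 0.13 and were not called. Against adult libraries 6 PRC2 and H3K27 genes of 11, 6 PRC1 genes of 20 and 10 DNA methylation genes of 18 were higher, and 0, 1 and 3 were lower. Of all tested genes 26.7% were higher and 23.4% lower there. There the leading genes were *Epop* (4.43), *Aebp2* (1.34) and *Mtf2* (1.07), then *Pcgf6* (2.40), *L3mbtl2* (1.79) and *Cbx2* (1.58), and *Ahcy* (2.98), *Cdca7l* (2.92) and *Cdca7* (2.85), with *Phc1* (-0.97), *Zbtb33* (-0.90), *Zbtb38* (-0.86) and *Mbd2* (-0.51) lower. With library totals 8, 8 and 13 were higher and 0 lower, and *Phc1* (-0.41), *Zbtb33* (-0.34), *Zbtb38* (-0.29) and *Mbd2* (0.06) were not called. With *R172H* against juvenile libraries, 7 of 10, 6 of 20 and 11 of 18 were higher and 1, 4 and 3 lower (30.4% and 26.3% of all tested genes). The rises were led by *Epop* (3.86), *Rbbp7* (1.23) and *Aebp2* (1.13), *Pcgf6* (2.00), *Pcgf5* (1.86) and *L3mbtl2* (1.75), and *Cdca7l* (4.33), *Cdca7* (3.57) and *Ahcy* (3.05). The lower genes there included *Phf1* (-0.88), *Phc1* (-1.16), *Phc2* (-0.74), *Cbx6* (-0.41), *Mbd2* (-1.01) and *Zbtb38* (-0.81). With library totals 9, 15 and 14 were higher and 0 lower: *Phc2* (0.31) and *Cbx6* (0.63) were then called higher, and *Phf1* (0.17), *Phc1* (-0.11), *Mbd2* (0.04) and *Zbtb38* (0.23) were not called. Between *c-Myc* + *R172H* and *c-Myc* libraries none of these related genes was called. Of 14 germline genes that DNA methylation is known to silence, 2 passed the filter on low counts in the comparisons with induced libraries, and neither was called. With library totals 1 of the 2 was called higher in *c-Myc* and in *c-Myc* + *R172H* than in juvenile libraries. *Tdrkh* had 0, 2, 5 and 0 counts in juvenile and 20 and 27 in *c-Myc* libraries. The sum of all 14 was at most 3.31 CPM in any library.

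**Figure D5:**
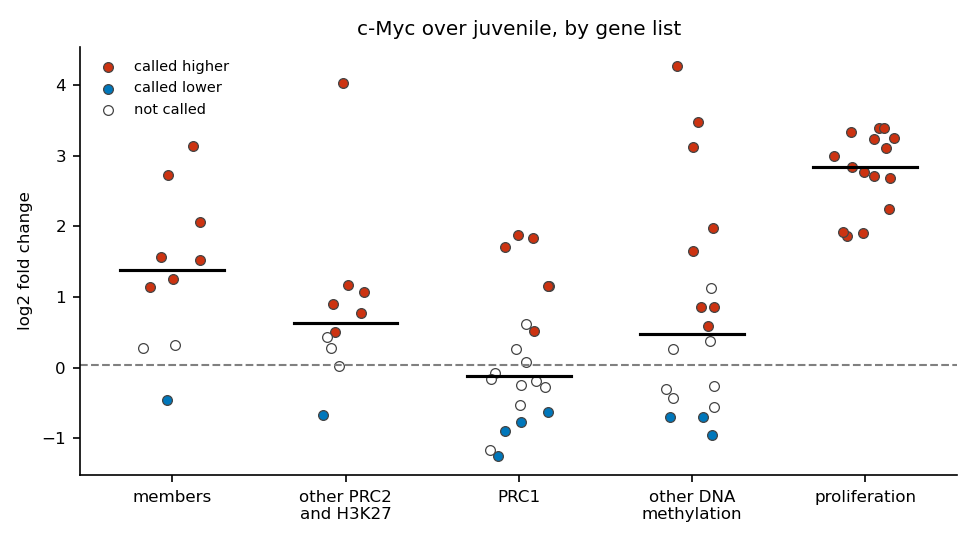
Log2 fold change between c-Myc and juvenile libraries (y axis) of the genes of each list (x axis), with 1 point per tested gene (red, called higher; blue, called lower; white, not called), the list median as a line and the median of all genes tested (0.04) dashed. The 15 proliferation genes all lie above 1, while each of the other 4 lists plotted holds genes on both sides of 0.

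Proliferation genes moved with the 7 genes that rose. All 15 of the list were called higher in *c-Myc* than in juvenile libraries, with a median log2 fold change of 2.84, and their summed level was 130.9 to 198.8 CPM in juvenile, 147.7 to 276.9 in adult, 1061 to 1164 in *c-Myc* and 1101 to 1169 CPM in *c-Myc* + *R172H* libraries. *Mki67* had a log2 fold change of 2.25 ± 0.18 (SE) and *Pcna* of 1.91 ± 0.14. Set against that sum in the same library, *Uhrf1* was 5.71 to 7.21% in juvenile and 6.42 to 6.89% in *c-Myc* libraries, and *Hells* 0.935 to 3.42% and 2.36 to 2.81%, so that their ranges overlapped. *Dnmt1* was 14.8 to 24.0% in juvenile and 12.7 to 13.1% in *c-Myc* libraries, without overlap. *Ezh2* went from 4.57 to 9.20% in juvenile to 2.41 to 2.51% in *c-Myc* libraries and *Suz12* from 7.26 to 15.0% to 4.26 to 4.41%. *Eed* went from 2.54 to 5.12% to 1.20 to 1.37%, and none of these 3 overlapped. *Dnmt3b* was 1.34 to 5.50% in juvenile and 1.38 to 1.40% in *c-Myc* libraries, so that its ranges overlapped. *Dnmt3a* went from 61.6 to 88.2% to 7.41 to 9.46%. The part of proliferation in these differences was not tested.

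Since 7 of the genes moved together, the RefSeq windows around their start sites (250 bases before to 50 after, GRCm38.p6) were searched on both strands for the words TTTCCCGC, TTTCGCGC, TTTGCCGC and TTTGGCGC, forms of the site bound by E2F factors that govern S-phase genes, and for CACGTG, the E-box bound by MYC. All 10 genes had a window, 15 in all. An E2F word was in 5 of the 15, those of *Ezh2*, *Suz12*, *Dnmt1*, *Uhrf1* and *Hells*, against 2.26% of 32851 windows in the table and 5.06% of the 3837 windows with at least 30 CpG. Counted by gene, 5 of the 10 had one, against 2.6% of 27025 genes. An E-box was in a single window, of *Dnmt3a*, against 7.15% of windows. The words, in capitals with 11 bases on either side where the window reaches, are shown because 5 of the 7 genes that rose carry one, and they are given 5′ to 3′ on the strand of the gene.
Ezh2, chr6:47595009-47595038, minus strand: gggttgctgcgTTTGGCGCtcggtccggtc
Suz12, chr11:79992876-79992905, plus strand: cgacccctcatTTTCCCGCgaattcagttc
Dnmt1, chr9:20952824-20952853, minus strand: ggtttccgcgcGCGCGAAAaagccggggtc
Dnmt1, chr9:20952574-20952601, minus strand: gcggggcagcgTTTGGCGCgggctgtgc
Uhrf1, chr17:56304117-56304146, plus strand: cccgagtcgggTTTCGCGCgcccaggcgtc
Hells, chr19:38930917-38930946, plus strand: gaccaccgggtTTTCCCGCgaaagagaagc

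The first word of *Dnmt1* is TTTCGCGC on the opposite strand. In *Ezh2* the word started 4 bases after the start site and in *Hells* 62 bases before it, and GENCODE models of both genes place it in a UTR of at least 1 transcript. In *Dnmt1* the words lay 219 bases before and 34 bases after a start site that is 1 of 3, each in the UTR of at least 1 transcript model. In *Uhrf1* the word lay 185 bases before its second start site, in an intron of 2 longer transcript models, and in *Suz12* it lay 219 bases before the start, outside all transcript models of the gene. *Eed* and *Dnmt3b*, which also rose, held none of these words in these windows. Of all tested genes with a window, 43.2% of the 470 with an E2F word and 28.4% of the 9340 without one were called higher in *c-Myc* than in juvenile libraries. The same shares were 32.7% of the 1177 with an E-box and 28.6% of the 8633 without one. Genes with and without a word were not matched for CpG number or expression level. These matches describe the sequence and say nothing of binding in these cells.

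The genes whose levels ran most like each member over the 12 libraries were found by the root mean square difference of mean-centred log2 CPM among 13005 genes. For *Ezh2* these included *Gnl3* (0.126) and *Usp15* (0.134), for *Suz12* *Wdr77* (0.147), *Cpsf1* and *Wdr43* (0.159 each), and for *Eed* *Itpa* (0.161), *Mrpl4* (0.202) and *Nsmce4a* (0.213). For *Dnmt1* they were *Anp32b* (0.149), *Ipo5* (0.151) and *Phb2* (0.153), for *Uhrf1* *Rassf2* (0.169), *Cdt1* (0.174) and *Nle1* (0.183), and for *Hells* *Dhodh* (0.389), *Hist1h1b* (0.443) and *Ppat* (0.449). *Dnmt3a* was nearest to *Rreb1* (0.0938), *Nr2c2* (0.108) and *Mia2* (0.109), and *Dnmt3b* to *Thyn1* (0.259), *Qdpr* (0.276) and *Cpt1b* (0.307). *Tet1* was nearest to *Iws1* (0.177), *Hsd17b4* (0.177) and *Pip4k2b* (0.178), and *Tet2* to *Asrgl1* (0.110), *Rnf168* (0.113) and *Arpc4* (0.116). No member was among the 3 nearest of another, PRC2 subunits included.

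In GENCODE models of GRCm38 the 10 genes are protein coding and lie on 10 different chromosomes, as *Ezh2* at chr6:47530139-47595341, *Suz12* at chr11:79993106-80034123, *Eed* at chr7:89954654-89980983, *Dnmt1* at chr9:20907209-20959888, *Dnmt3a* at chr12:3806007-3914443, *Dnmt3b* at chr2:153649450-153687730, *Uhrf1* at chr17:56303321-56323486, *Hells* at chr19:38930915-38971051, *Tet1* at chr10:62804570-62908996 and *Tet2* at chr3:133463679-133545139. Their exons cover between 3828 bases (*Eed*) and 16870 bases (*Tet2*). *Eed* overlaps E230029C05Rik on the opposite strand, which had 39 counts over all libraries. The library kit was directional, but the strand setting of the counting was not given in the sources used here. How reads in the overlap were counted is therefore not known.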

How the data were processed

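The authors used cutadapt 4.6 for trimming, STAR 2.7.11a for alignment to mm10 and HTSeq-count 2.0.5 for counting reads that mapped once, and deposited raw counts per gene. The alignment and the counting used different GENCODE releases, and the strand setting is not given in the sources used here. Libraries were grouped by GEO titles. Each control library pooled 2 mice; for the induced libraries the sources used here do not say which came from separate mice, so p-values there measure a spread that may be technical.

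Counts were tested in R 4.3.3 with edgeR 4.0.16 (TMM, default expression filter, robust quasi-likelihood F test, Benjamini-Hochberg adjustment at 0.05). Juvenile and adult libraries were fitted alone, *c-Myc*, *c-Myc* + *R172H* and juvenile libraries together, and *c-Myc* against adult with all 12. The SE was approximated as the absolute log2 fold change over the root of F. CPM used TMM factors over all 12 libraries, and lengths are exon unions of GENCODE vM21. The procedure was tested on simulated data. Paired ratios used exact permutation tests. DESeq2 1.42.0, other scalings and filters, a replicate block and each library left out were alternatives. The counts of every replicate pair differed by more than sampling noise. Depth sets counting error only; the reads carry no molecular identifiers.

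The members and gene lists were chosen with earlier results of these data known. All 10 members were named, together with up to 3 of the largest rises and 3 of the largest falls among called genes of each related list, the 3 genes most alike to each member, ratio partners, *Mki67*, *Pcna* and defining cell type markers. *Myc*, *Trp53*, *Ctsk*, *Mmp9*, *Ocstamp*, *Dcstamp*, *Lyz2*, *Egfl7*, *Tdrkh* and E230029C05Rik were named outside that rule, after their values were seen. A few genes that this rule names are not reported here.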

Additional observations from a re-analysis of the deposited data

Results flagged for a closer look

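*Tet1* in juvenile replicate 4 was at 19.5 CPM, while the other juvenile libraries lay between 9.88 and 10.4 CPM. The gap to the nearest library was 0.944 of the range of the group, above Dixon's critical value for 4 samples. Of 26 sets of 4 values tested this was the only one, and chance alone gives about 1 in 20. Without that library *Tet1* was called higher in *c-Myc* than in juvenile libraries, with a log2 fold change of 0.62.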

How the results depend on the processing

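Under 18 alternatives the number of genes called higher in *c-Myc* over juvenile libraries stayed between 7 and 10, as it did with *c-Myc* + *R172H*, and over adult libraries it was between 6 and 10 in 21 alternatives. No member was called with age (17 alternatives) or with *R172H* added to *c-Myc* (18). The count called lower in *c-Myc* libraries was 0 with library totals, also for *c-Myc* + *R172H*, and 0 to 1 with a library left out. With library totals *Dnmt3a* was at 0.369 (*c-Myc* over juvenile), 0.563 (*c-Myc* + *R172H* over juvenile) and 0.421 (*c-Myc* over adult), and all-gene medians were 0.872, 1.12 and 0.566.

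With age, library totals gave log2 fold changes of -0.203 (*Ezh2*), -0.192 (*Suz12*), -0.198 (*Eed*), -0.231 (*Dnmt1*), -0.21 (*Dnmt3b*), -0.0421 (*Uhrf1*), -0.203 (*Tet1*) and -0.234 (*Tet2*), against an all-gene median of -0.243. Requiring 10 counts in every library gave -0.00776 (*Dnmt1*), -0.00302 (*Dnmt3b*) and -0.0106 (*Tet2*). Leaving out a library moved them from -0.0493 to 0.177 (*Ezh2*), -0.0403 to 0.174 (*Suz12*), -0.128 to 0.27 (*Eed*), -0.0909 to 0.0923 (*Dnmt1*), -0.29 to 0.25 (*Dnmt3b*), -0.723 to 0.141 (*Hells*), -0.227 to 0.197 (*Tet1*) and -0.0885 to 0.0816 (*Tet2*), and the *Ezh2*/*Ezh1* ratio difference from -0.0247 to 0.314. With *R172H* over *c-Myc*, library totals gave 0.194 (*Dnmt3a*) and 0.16 (*Dnmt3b*), and a library left out gave -0.158 to 0.0668 (*Dnmt3a*), -0.18 to 0.0257 (*Dnmt3b*), -0.0439 to 0.283 (*Eed*), -0.0612 to 0.17 (*Uhrf1*), -0.0261 to 0.0623 (*Tet1*) and -0.0774 to 0.204 (*Tet2*). The cause was not tested.

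Same-numbered libraries of a control and another group did not deviate together (correlations of -0.0793 to 0.0777). Those of the 2 induced groups had a correlation of 0.174. This is a single value because each of these groups holds 2 libraries, and its cause was not tested. The replicate block gave log2 fold changes of -0.103 (*Dnmt3b*) and -0.00293 (*Tet2*) with age, and *Tet1* passed with *c-Myc* over juvenile (0.598), with *c-Myc* + *R172H* over juvenile (0.645) and with *c-Myc* over adult (0.714). With *R172H* added, all-gene calls were 30 higher and 296 lower under the block, 189 and 440 in a fit of those 2 groups alone and 8 and 200 with DESeq2, against 1 and 58; with age they were 399 and 578 without a filter. *Hells* had 4 counts in 1 adult library, which limits its precision.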
